A study of Homo sapiens with 9 samples.

Results

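Histone H2A over genes was compared between 60 and 30 min of progestin in T47D-MTVL cells, with 1 ChIP-seq library at each time. Autosomal protein-coding genes were kept when their annotated length was at least 10 kb and their RPKM (reads scaled by gene length and library size), averaged over the H2A libraries, was no lower than 0.1. These were 13318 of the 20318 genes in the deposited H2A table. Of the others, 918 lay on X, Y or the mitochondrial genome, 5946 autosomal genes were too short, and 136 were long enough but under the RPKM minimum. T47D-MTVL derives from the T47D human breast cancer line and holds an added reporter gene under the MMTV promoter, from a mouse retrovirus that steroid hormones activate. All cells had been kept without serum and were fixed with 1% formaldehyde. The 30 and 60 min cells had received R5020, a synthetic progestin, at 10 nM, and the 0 min cells, whose levels are printed as a reference, had received none. The labels name no second culture, no other line and no input or vehicle library, so every difference below is a difference between libraries of 1 line.

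H2A is one of the core histones of the nucleosome, where it pairs with H2B. The H2A-H2B dimers sit on the outer faces of the particle and leave more readily than the H3-H4 tetramer, so ChIP against H2A reads both whole nucleosomes and the dimers within them. Progestins act through the progesterone receptor, which recruits kinases, poly-ADP-ribose polymerase and ATP-dependent remodellers to its target chromatin. The question of this comparison was how the H2A signal moved in the later of the 2 intervals, and whether it went back towards the level without hormone.

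Depth was read from the RPKM steps of short genes with 1 transcript, all of whose values came out whole within 0.05 reads. It was 141 M reads for the 0 min library, 169 M for 30 min and 133 M for 60 min. A gene with several annotated transcripts was counted over each of them, so levels are compared between times and not between genes. The counting standard error (SE) of a log2 ratio below comes from the reads per transcript in the 2 libraries. It covers the drawing of reads only, and its median was 0.0449, with no value for 184 genes that had no transcript number. H2A signal over a gene is not its expression, so markers say nothing here about cell type. In a short set of defining markers that passed the filters, 6 luminal genes read 1.498 to 11.6 RPKM over the 3 times, 3 basal and mesenchymal genes 4.802 to 10.5 and 2 immune genes 2.70 to 9.39, and none was at 0. The longer marker lists given further on hold lower values.

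Relative to library size, H2A read slightly higher at 60 than at 30 min over most genes. RPKM is scaled to each library's own total, so the sign and share below are relative and do not measure the amount of H2A. When the ratios were centred on their median, 50% of the genes were higher, by construction. The median log2 ratio of RPKM, each with 0.05 added, was 0.07, and 9125 genes (68.5%) were higher by any amount. The middle 90% of genes lay between -0.19 and 0.22, and the whole range was -0.51 to 0.69. The median RPKM was 2.58 at 0 min, 2.48 at 30 min and 2.55 at 60 min, so the 60 min median stood between the others. The median log2 ratio was -0.10 for 30 over 0 min and -0.02 for 60 over 0 min. The 30 min library enters both 30 over 0 and 60 over 30 min, so these are not independent readings. A deviation of that 1 library and a move of H2A out and back cannot be told apart.

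The difference varied with the base composition of the gene. In the GC-poorest decile of the genes (30.4% to 37.0% GC over the gene body, 1332 genes) the median log2 ratio was -0.18, and 12 genes (0.901%) were higher at 60 min. In the GC-richest decile (54.2% to 67.3% GC, 1332 genes) the median was 0.15, and 1311 genes (98.4%) were higher. The sign of the median turned between the third decile (-0.02) and the fourth (0.02, from 39.9% GC). From there it went up to 0.16 in the ninth decile, so the steepest part lay in the GC-poor genes and the GC-rich end was flat.

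**Figure D1:**
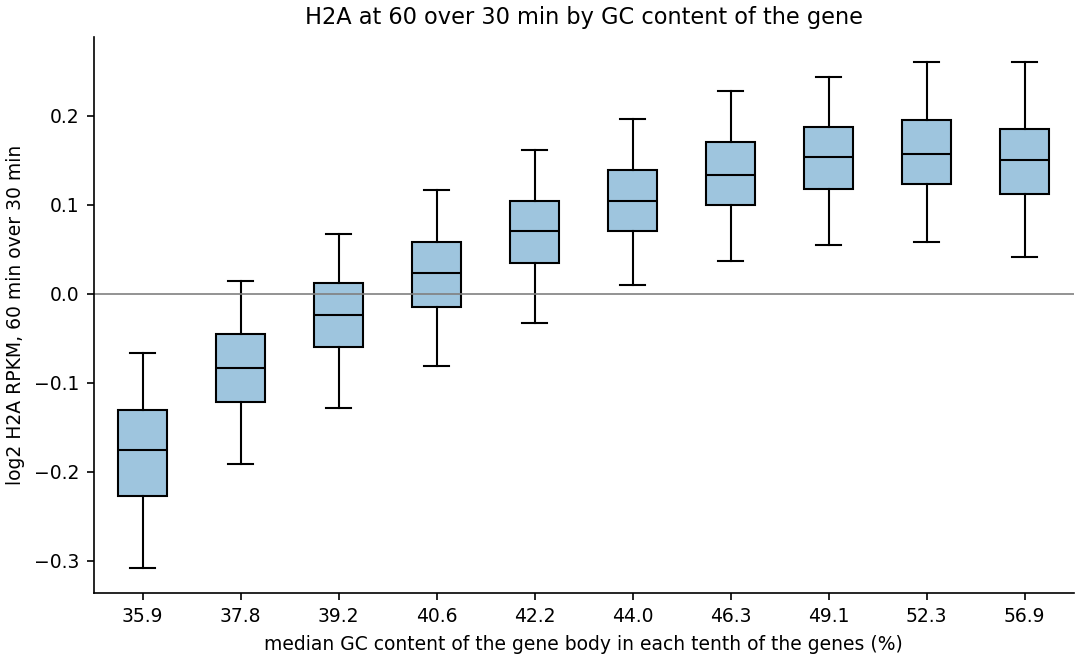
Log2 ratio of H2A RPKM at 60 over 30 min (vertical axis) in 10 groups of equal size ordered by GC content of the gene body, each marked with its median GC content in percent (horizontal axis, groups evenly spaced). Boxes span the quartiles with the median as a line, and whiskers reach the 5th and 95th percentiles of the genes. The medians go from -0.18 in the GC-poorest group to 0.16 in the ninth and 0.15 in the last.

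The levels at the 3 times were set side by side. In the GC-poorest decile the median RPKM was 2.05 at 0 min, 2.46 at 30 min and 2.13 at 60 min. In the GC-richest decile it was 3.29, 2.63 and 2.95. The 60 min medians thus lay between the other times at both ends of the scale. Each comparison's own medians were 0.24 (30 over 0), -0.18 (60 over 30) and 0.07 (60 over 0) in the GC-poorest decile, and -0.32, 0.15 and -0.17 in the GC-richest. At 60 min the GC-poor end was closer to its 0 min level than the GC-rich end was. Whether that gap exceeds the spread between cultures cannot be told with 1 library a time.

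Across the 13318 genes, which share the same 2 libraries, the Spearman correlation of the log2 ratio with GC content was 0.829. It was 0.692 with CpG dinucleotides per kilobase, -0.314 with gene length, 0.113 with mean RPKM and 0.00 with the number of transcripts. Longer genes are GC-poorer in this set, and the median log2 ratio went from 0.12 in the shortest quintile of the genes to 0.00 in the longest. When the median of each of 50 GC bins was subtracted (the GC trend taken off), the quintiles by length had medians between -0.0013 and 0.0012. Between the quintiles by mean RPKM the median went from 0.05 to 0.10, and from -0.01 to 0.00 with the trend off. The standard deviation across genes was 0.1267 as measured and 0.0612 with the trend off. A difference in how GC-rich and GC-poor fragments were recovered in the 2 libraries and a difference in H2A cannot be told apart here.

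Genes of at least 100 kb gave the most precise values. The 2883 such genes had a median counting SE of 0.0216, a median log2 ratio of 0.01 and a Spearman correlation with GC content of 0.944. Their standard deviation was 0.116, and 0.0385 with the GC trend off. As examples of such genes away from the trend by several counting SE, MEF2A, MKLN1, SND1 and GLIS3 were chosen after their values were seen. MEF2A, a MADS-box transcription factor, read 5.02, 5.98 and 5.25 RPKM at 0, 30 and 60 min, a log2 ratio of -0.19 for 60 over 30 min (SE 0.02) and -0.17 with the trend off. MKLN1, which encodes muskelin, had -0.11 and -0.13 with the trend off. On the other side SND1, a subunit of the RNA-induced silencing complex, read 5.56, 5.00 and 5.48 RPKM, with 0.13 for 60 over 30 min (SE 0.02) and 0.12 with the trend off. GLIS3, a zinc finger transcription factor, had 0.09 and 0.10. MEF2A overlaps another gene of the table, and the other genes named in this paragraph do not.

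The chromosomes differed as their genes' GC content did. Chromosome 4 (median GC 38.8%, 595 genes) had the lowest median log2 ratio, -0.04, and chromosome 13 had -0.01. Chromosome 19 (51.2%, 912 genes) had 0.14, as had chromosome 22, and chromosomes 16 and 17 had 0.13. With the GC trend off, the 22 autosomes had medians from -0.01 to 0.01. In 472 windows of 5 Mb that held at least 10 of the genes, the median ran from -0.26 to 0.17 and was above 0 in 311. The lowest window was 85 to 90 Mb of chromosome 12, where all 13 genes, ALX1 and SLC6A15 among them, read lower at 60 min. The highest was 25 to 30 Mb of chromosome 16, where all 33 genes read higher. With the trend off the window medians lay between -0.06 and 0.06.

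**Figure D2:**
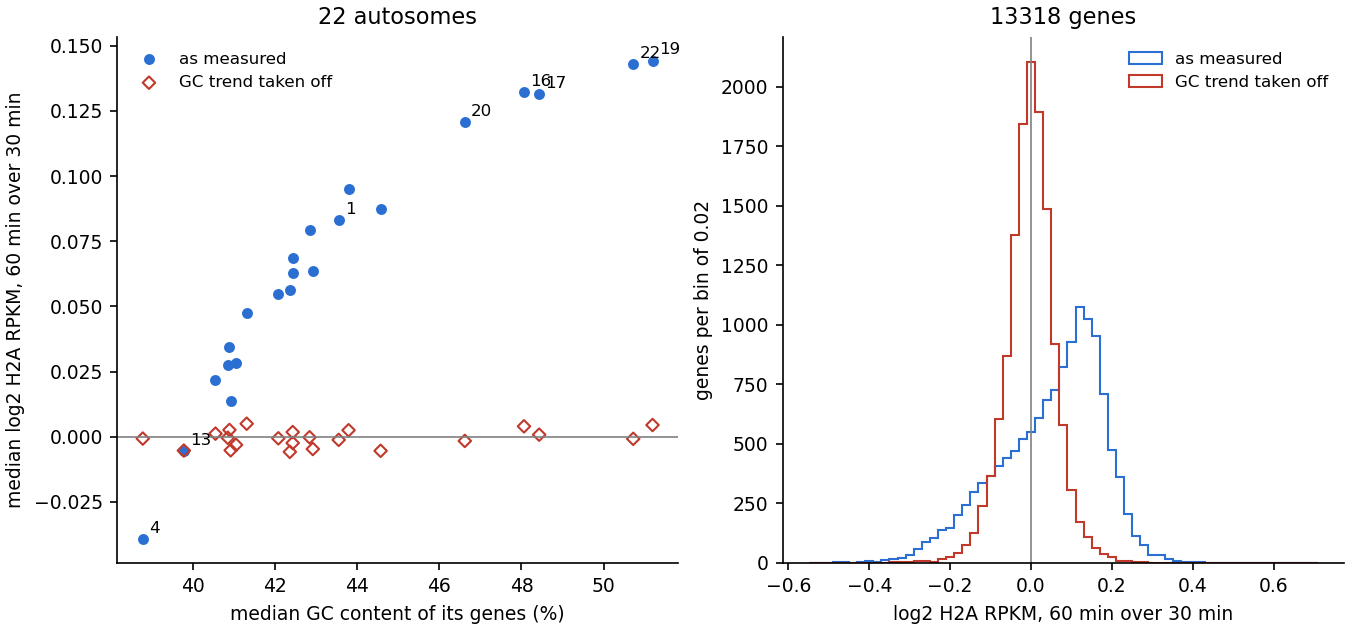
Left, median log2 ratio of H2A RPKM at 60 over 30 min of each autosome (vertical axis) against the median GC content of its genes in percent (horizontal axis), as measured (filled) and with the GC trend taken off (open), with some chromosome numbers printed. Right, number of genes per bin of 0.02 by their log2 ratio, before (blue) and after (red) the trend was taken off. The autosomes go from -0.04 on chromosome 4 to 0.14 on chromosome 19 and lie near 0 with the trend off, and the spread of the 13318 genes narrows from 0.1267 to 0.0612 (SD).

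Few genes differed by much. A log2 ratio past 0.3 either way (1.23-fold) was reached by 79 genes that were higher at 60 min (0.593% of the genes) and by 82 that were lower (0.616%). When the ratios were centred on their median, the split was 9 higher against 382 lower. The 79 were short and GC-rich, with a median length of 13388 bp, a median GC content of 51.7% and none in the GC-poorest decile. The 82 had a median length of 28976 bp and a median GC content of 34.1%, and 77 of them lay in the GC-poorest decile. Both groups were shorter than all the genes, whose median length was 39832 bp. Their median counting SE was also larger, 0.0792 for the 79 and 0.0581 for the 82, against 0.0449 for all. Of the 79, 73 were past 2 counting SE, as were 80 of the 82, against 58.0% of all the genes, and the choice by this ratio favours that. Once the GC trend was off, 51 of the 79 and 42 of the 82 were, against 13.3% of all. With the GC trend off, 3 genes were higher past 0.3 (0.0225%) and 6 lower (0.0451%), and 49.9% were higher by any amount, which the subtraction of bin medians sets.

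The 10 genes with the highest ratios of 60 over 30 min have mixed roles. RPS3, a ribosomal protein of the small subunit that also takes part in base excision repair, read 11.80, 8.967 and 12.03 RPKM at 0, 30 and 60 min. Its log2 ratio for 60 over 30 min was 0.42 (SE 0.05), and 0.28 with the GC trend off. FLT3LG, the ligand of the FLT3 receptor of blood progenitors, read 3.48, 2.55 and 3.39 RPKM, a log2 ratio of 0.41 (SE 0.10). SH2D3A, an SH2 adaptor protein, read 2.66, 2.00 and 2.65 RPKM, a log2 ratio of 0.39 (SE 0.08). In RPS3, FLT3LG and SH2D3A the 30 min library was the low one and the other libraries were near each other. A choice by the ratio of 60 over 30 min favours a low 30 min value, which 9 of the 10 had, against 63.1% of all genes. POLR2D, a subunit of RNA polymerase II, had 0.37 (SE 0.09), from 1.05 to 1.38 RPKM. TCP10L3 had 0.42 (SE 0.03), from 0.857 to 1.16 RPKM, and was above its 0 min level of 0.957. FLT3LG and TCP10L3 overlap another gene of the table.

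The other 5 of these 10 belong to duplicated families, where reads may be split between copies, and are uncertain. Sharing of reads between copies was not measured for any of the 10, so TCP10L3 and the others above may also be affected. FAM86B1 had the highest ratio of all, 0.69, from 0.151 to 0.274 RPKM, with an SE of 0.48. C4B, a complement component with the near-identical copy C4A, had 0.40 with an SE of 0.41, and C4A had -0.17. DHRS4, a retinol dehydrogenase, had 0.40 (SE 0.16), FAM72B had 0.39 (SE 0.26), and CELA3A, a pancreatic elastase, had 0.37 (SE 0.13). Of the 10 genes 7 were past 2 counting SE, against 58.0% of all genes, and 5 with the GC trend off, against 13.3%. The choice by this ratio favours that.

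The start regions of RPS3 and of SLC46A1, the proton-coupled folate transporter and the highest of the solute carriers, are shown beside that of POSTN from the low end, as examples of the bases at the start of genes from both ends. Each is the 200 bases before the annotated start, read 5′ to 3′ on the gene's strand of GRCh37, with every CG dinucleotide in capitals. They lie outside the counted gene body, and the genes were chosen after their values were seen. RPS3 (plus strand, chr11:75110375-75110574) held 13 CG, SLC46A1 (minus strand, chr17:26733229-26733428) 18 and POSTN (minus strand, chr13:38172982-38173181) 1.
RPS3: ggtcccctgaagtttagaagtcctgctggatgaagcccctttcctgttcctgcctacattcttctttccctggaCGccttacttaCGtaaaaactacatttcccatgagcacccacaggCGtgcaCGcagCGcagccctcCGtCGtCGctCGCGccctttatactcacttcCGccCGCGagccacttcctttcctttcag
SLC46A1: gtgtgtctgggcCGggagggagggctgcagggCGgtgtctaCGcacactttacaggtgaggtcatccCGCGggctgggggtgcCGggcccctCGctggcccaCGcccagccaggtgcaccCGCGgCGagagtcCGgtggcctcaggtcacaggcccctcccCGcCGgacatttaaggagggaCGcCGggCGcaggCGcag
POSTN: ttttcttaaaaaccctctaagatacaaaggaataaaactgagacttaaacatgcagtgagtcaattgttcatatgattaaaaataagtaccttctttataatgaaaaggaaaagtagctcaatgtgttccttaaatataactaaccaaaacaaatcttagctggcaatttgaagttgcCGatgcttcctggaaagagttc

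Over all 13318 genes the same window held a median of 14 CG, and 95.7% of the windows held at least 1. The median was 12 in the GC-poorest decile of gene bodies and 18 in the GC-richest, and the deciles between had 14 or 15. POSTN, with 1 CG against a median of 12 in its own decile, is not a typical member of it. ALX1 and NOVA1, which also have low ratios and lie in that decile, held 8 and 4 CG in this window. FLT3LG, from the high end, held 16. The choice of POSTN thus widened the contrast between the sequences shown.

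The 10 genes with the lowest ratios were nearly all GC-poor. ALX1, a homeobox factor of craniofacial development, read 0.320, 0.475 and 0.318 RPKM at 0, 30 and 60 min, a log2 ratio of -0.51 for 60 over 30 min (SE 0.06). POSTN, which encodes the matrix protein periostin, read 1.71, 2.53 and 1.80 RPKM, a log2 ratio of -0.48 (SE 0.06). NOVA1, a neuronal splicing regulator, read 3.27, 4.74 and 3.57 RPKM, a log2 ratio of -0.40 with the smallest counting SE of the 10, 0.02. In all of ALX1, POSTN and NOVA1 the 30 min library was the high one, which a choice by the ratio of 60 over 30 min favours. PDCD4, an inhibitor of translation initiation that acts as a tumour suppressor, had -0.43 (SE 0.07), from 2.88 to 2.13 RPKM. CSN1S1, the milk protein alpha-S1 casein, had -0.47 (SE 0.10), from 1.47 to 1.05 RPKM.

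CLEC2B, a C-type lectin, had -0.49 (SE 0.13), and at 60 min (0.330 RPKM) it was also below its 0 min level (0.398 RPKM). CCDC179, with -0.43, IAPP, which encodes the islet peptide amylin, with -0.41, and TMEM33, with -0.40, complete the low end together with SERF1B. SERF1B belongs to a duplicated locus and is uncertain, with -0.46 and an SE of 0.31. IAPP overlaps another gene of the table. All but SERF1B lay in the GC-poorest decile. Of the 10, 9 were past 2 counting SE, against 58.0% of all genes, and 8 with the GC trend off, against 13.3%. The choice by this ratio favours that. With the trend off POSTN had -0.23 and ALX1 -0.26.

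**Figure D3:**
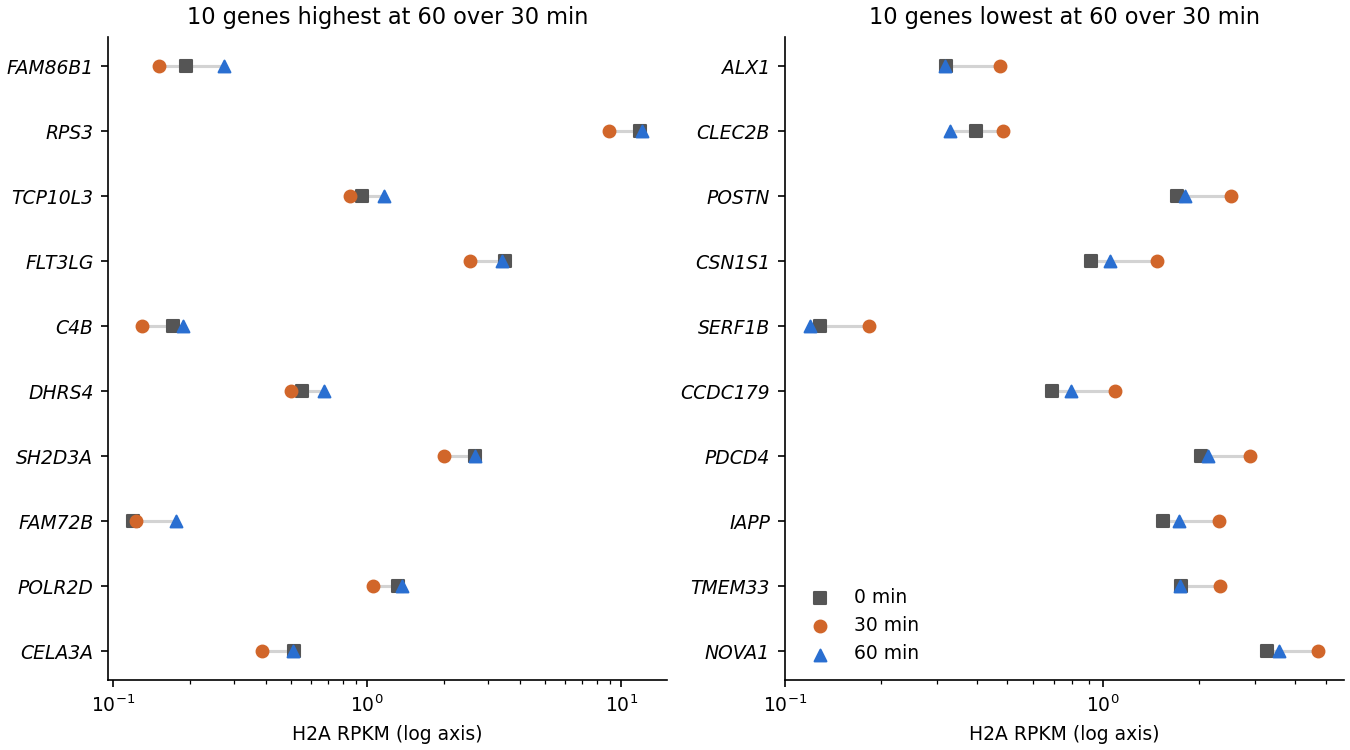
H2A RPKM (horizontal log axis, with different ranges in the panels) at 0, 30 and 60 min of the 10 genes with the highest (left) and the 10 with the lowest (right) log2 ratio of 60 over 30 min, 1 library a time, joined by a grey line. The 60 min value of RPS3 (12.03) sits beside its 0 min value (11.80). In the right panel the 30 min value is the highest of each gene, as in ALX1 (0.475). The choice by this ratio favours a low 30 min value on the left and a high one on the right.

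With the GC trend off, the genes farthest from 0 were mostly low, duplicated ones. FAM86B1 (0.53), CBWD5 (0.44), FAM72B (0.33), PTPN20B (0.29) and DHRS4 (0.28) were highest. SERF1B (-0.54), the golgin gene GOLGA6A (-0.47), LOC285556 (-0.35), the pepsinogen gene PGA5 (-0.33) and C4A (-0.32) were lowest. LOC285556, with 0.276, 0.299 and 0.244 RPKM at 0, 30 and 60 min and 1 annotated transcript, had a counting SE of 0.08. SERF1B, GOLGA6A, PGA5 and C4A belong to duplicated families, so their values are uncertain. No single gene among the 3 past 0.3 on the high side was past 2 counting SE, whereas 2 of the 6 on the low side were.

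Genes of the progestin response had a median near that of all genes, but a larger share of them was higher as measured. Their median GC content was 44.87%, against 43.05% for all genes. Of 30 measured, 27 (90.0%) were higher at 60 min against 68.5% of all genes, with a median log2 ratio of 0.09 against 0.07, and 1 was past 0.3. That was F3, which encodes tissue factor, with 1.27, 1.12 and 1.39 RPKM at 0, 30 and 60 min and a log2 ratio of 0.30 (SE 0.09). FASN, fatty acid synthase, read 4.84, 3.66 and 4.41 RPKM, a log2 ratio of 0.27 (SE 0.07). At the other end PDK4, the pyruvate dehydrogenase kinase, had -0.23 (SE 0.09) and CALCR, the calcitonin receptor, -0.18 (SE 0.02). CALCR turned to 0.01 with the GC trend off, where PDK4 was at -0.06, F3 at 0.21 and FASN at 0.12. With the GC trend off the median was 0.01 and 17 of 30 were higher.

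Among individual hormone targets the GC-rich genes read higher at 60 than at 30 min. STAT5A, with 54.6% GC, the transcription factor downstream of the prolactin receptor, read 8.05, 6.24 and 7.40 RPKM at 0, 30 and 60 min, a log2 ratio of 0.24 (SE 0.05) for 60 over 30 min. ZBTB16, a BTB zinc finger repressor, read 4.90, 3.99 and 4.48 RPKM, a ratio of 0.16 (SE 0.03). EGFR, the epidermal growth factor receptor, read 7.44, 6.65 and 7.21 RPKM, a ratio of 0.12 (SE 0.01). In STAT5A, ZBTB16 and EGFR the 60 min value lay between the others, as it did in 9943 (74.7%) of all the genes. FKBP5, a co-chaperone of steroid receptors with 40.1% GC, read 1.96, 1.98 and 1.99 RPKM, a ratio of 0.01 (SE 0.02). With the trend off, FKBP5 and EGFR were at -0.0015, ZBTB16 at 0.02 and STAT5A at 0.09.

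CCND1, which encodes cyclin D1, had a log2 ratio of 0.18 (SE 0.06), from 2.86 to 3.24 RPKM, and 0.03 with the trend off. GREB1, an estrogen receptor cofactor, had 0.18 (SE 0.03), from 2.97 to 3.38 RPKM, and 0.03 with the trend off. The genes of the receptors themselves differed by less than 2 counting SE. PGR, the progesterone receptor, read 3.15, 3.41 and 3.32 RPKM at 0, 30 and 60 min, a ratio of -0.04 (SE 0.03), and ESR1, estrogen receptor alpha, read 4.11, 4.17 and 4.26 RPKM, a ratio of 0.03 (SE 0.02).

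Among 25 steroid receptors and coregulators, 17 were higher (68.0%, against 68.5% of all genes) and 8 lower, with a median of 0.04. The counts of genes higher in the lists that follow are to be read against the same 68.5%, and against 49.9% with the trend off. PELP1, a scaffold for receptor signalling, had 0.20 (SE 0.07) and CARM1, an arginine methyltransferase, 0.19 (SE 0.04), whereas the coactivator NCOA1 had -0.13 (SE 0.02) and NR3C1, the glucocorticoid receptor, -0.11 (SE 0.02). When the ratios were centred, the median of this list turned to -0.03. Of 26 kinase signalling genes 17 were higher (65.4%, median 0.11). Among them the receptor ERBB4 was at -0.24 (SE 0.01), the kinase SRC at 0.22 (SE 0.03) and the adaptor SHC1 at 0.22 (SE 0.06). ERBB4 turned to 0.01 with the trend off, where SRC and SHC1 were at 0.06. The kinase list split into 13 higher and 13 lower with the trend off.

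Of 19 estrogen response genes 16 were higher, with the highest median of the lists, 0.15, and a high GC content (median 47.3%). TSKU had 0.29 (SE 0.07) and the scaffold SLC9A3R1 0.20 (SE 0.04), against -0.09 for the corepressor NRIP1 and -0.08 for RERG, a small GTPase. NRIP1 and RERG turned to 0.06 and 0.03 with the trend off, where TSKU was at 0.14 and SLC9A3R1 at 0.04. With the trend off the median was 0.01. All 12 luminal breast markers (median GC 46.9%) were higher, against 68.5% of all genes, with a median of 0.13, and with the trend off 5 were higher and 7 lower. CDH1, E-cadherin, and the keratin gene KRT8 had 0.18, and EPCAM, an adhesion protein, 0.02. Of 16 basal and mesenchymal markers 10 were higher (median 0.08), with CDH3, P-cadherin, and SPARC, a matrix protein, at 0.16 and the transcription factors ZEB1 and TWIST1 at -0.25 and -0.14. Of 11 immune markers 9 were higher (median 0.09), and 4 with the trend off. As measured they ran from PTPRC, the leukocyte phosphatase CD45 (-0.23), to CD74, the invariant chain (0.24). PTPRC turned to 0.02 with the trend off, where CD74 was at 0.08.

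The enzymes that make and use poly-ADP-ribose were of interest because the study concerned its turnover to nuclear ATP. Of 32 genes for poly-ADP-ribose, NAD and nuclear ATP, 23 were higher (71.9%, against 68.5% of all genes), with a median of 0.11. With the trend off 21 were higher, with a median of 0.02. PARP1, the main polymerase, read 7.40, 6.27 and 6.98 RPKM at 0, 30 and 60 min, a log2 ratio of 0.15 (SE 0.05). NUDT5, the hydrolase of ADP-ribose, read 5.53, 4.98 and 5.62 RPKM, a ratio of 0.17 (SE 0.04). PARG, the glycohydrolase that breaks the polymer down, is GC-poor (37.5%) and read 0.694, 0.758 and 0.719 RPKM, a ratio of -0.07 (SE 0.03). PARP1 and NUDT5 were thus lowest at 30 min, as were 63.1% of all genes, and PARG was highest then, as were 29.0%. Within the GC deciles of PARP1, NUDT5 and PARG the shares with the same pattern were 97.0%, 94.8% and 91.9%. Their values with the trend off were 0.01, 0.05 and 0.03. The ends of the list were SIRT3, a mitochondrial deacetylase (0.27, SE 0.09), and QPRT, an enzyme of NAD synthesis (0.19, SE 0.07), against NAMPT, which salvages nicotinamide (-0.24, SE 0.13), and PARP8 (-0.19, SE 0.03).

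Of 40 chromatin remodelling genes 29 were higher (72.5%, against 68.5% of all genes) and 11 lower, with a median of 0.09. With the trend off they split into 20 and 20. SMARCA5, an ATPase of ISWI complexes, was past -0.3, with 0.702, 0.902 and 0.723 RPKM at 0, 30 and 60 min and a log2 ratio of -0.30 (SE 0.05). CHD1, another ATPase, had -0.29 (SE 0.04), and BPTF, the largest subunit of the NURF complex, had 0.01 (SE 0.02). DPF2, a subunit of BAF complexes, had 0.26 (SE 0.09) and SMARCA4, the BAF ATPase BRG1, 0.21 (SE 0.05).

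Of 23 histone chaperones and H2A variant genes 18 were higher (78.3%, median 0.10), and 11 with the trend off. UBN1, a subunit of the HIRA chaperone complex, had 0.21 (SE 0.04) and TONSL, which reads new histones behind the replication fork, 0.27 (SE 0.05), against -0.13 (SE 0.08) for the H3-H4 chaperone ASF1A and -0.11 (SE 0.05) for the H2A-H2B chaperone NAP1L1. NAP1L1 turned to 0.08 with the trend off, where UBN1 was at 0.07, TONSL at 0.12 and ASF1A at -0.11. Of 21 genes of the LSD1, CoREST, HP1 and repressive methylation group 14 were higher (66.7%, against 68.5% of all genes), and 8 with the trend off. The median of this group was 0.06, and -0.01 when centred. In that group the paralogous deacetylases stood at opposite ends, with HDAC1 (46.6% GC) at 0.26 (SE 0.05) and HDAC2 (37.0% GC) at -0.27 (SE 0.09). With the trend off they were at 0.12 and -0.17. KDM1A, which encodes LSD1, read 2.09, 2.13 and 2.11 RPKM, a ratio of -0.01 (SE 0.09).

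Of 31 G1/S and DNA replication genes 20 were higher (64.5%, against 68.5% of all genes), with a median of 0.11. At the low end were ORC4 of the origin recognition complex (-0.18, SE 0.04) and RB1, the retinoblastoma gene (-0.14, SE 0.03). At the high end were the transcription factor E2F1 (0.28, SE 0.07) and RPA1, which binds single-stranded DNA (0.22, SE 0.05). The split with the trend off was 15 higher and 16 lower. Over genes of at least 50 kb the median of this list turned to -0.08.

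The large genes of synaptic adhesion were the one list with a negative median. Of 34 genes 28 were lower at 60 min, with a median of -0.13, against a median GC content of 36.5%. CSMD3 read 3.93, 5.16 and 4.16 RPKM at 0, 30 and 60 min, a log2 ratio of -0.31 (SE 0.01). CDH10, a cadherin, read 1.12, 1.48 and 1.20 RPKM, a ratio of -0.29 (SE 0.02). The highest were NRXN2, a neurexin with 54.2% GC (0.14, SE 0.03), and NLGN2, a neuroligin with 59.8% (0.13, SE 0.08). NRXN2 and NLGN2 turned to -0.02 and -0.01 with the trend off, where CSMD3 was at -0.055 and CDH10 at -0.04. The median was 0.01 with the trend off, and 18 of 34 were higher. The 39 glutamate and GABA receptor genes had a median of 0.00, with 20 higher, -0.07 when centred, and -0.01 with the trend off, with 13 higher. GABRP, a GABA receptor subunit, had 0.17 (SE 0.04).

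Ribosomal protein genes are mostly short, and 13 of 87 listed passed the filters. All 13 were higher, against 68.5% of all genes, with a median of 0.12, from RPS27L (0.02, SE 0.05) to RPS3, and 7 were higher with the trend off. Of 37 oxidative phosphorylation genes 25 were higher (67.6%, median 0.06), from NDUFA5 of complex I (-0.16, SE 0.13) to NDUFA13 of the same complex (0.25, SE 0.09). The median of this list was -0.01 both when centred and with the trend off. Of 30 proteasome genes 19 were higher (63.3%, median 0.05, and -0.02 when centred) and 12 with the trend off. The lid subunit PSMD14 was at -0.27 (SE 0.03) and the ubiquitin receptor PSMD4 at 0.24 (SE 0.07). Over genes of at least 50 kb the proteasome median was -0.10.

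Among larger families, 284 of 398 zinc finger genes were higher (71.4%, against 68.5% of all genes), from ZNF214 (-0.38, SE 0.08) to ZNF3 (0.35, SE 0.09). Their median was 0.06, and -0.01 both when centred and with the trend off. Of 261 solute carriers 197 were higher (75.5%, median 0.09), from the amino acid transporter SLC6A15 (-0.33, SE 0.07) to SLC46A1. SLC46A1 read 8.48, 6.52 and 8.36 RPKM at 0, 30 and 60 min, a ratio of 0.36 (SE 0.05). Of 72 potassium channel genes 58 were higher (80.6%, median 0.10), from KCNT2 (-0.30, SE 0.02) to KCNE3 (0.31, SE 0.07). Of 41 collagen genes 27 were higher (65.9%, median 0.09), from COL11A1 (-0.34, SE 0.03) to COL9A2 (0.33, SE 0.07), both of cartilage. The medians of the solute carriers, channels and collagens were 0.01 with the trend off.

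**Figure D4:**
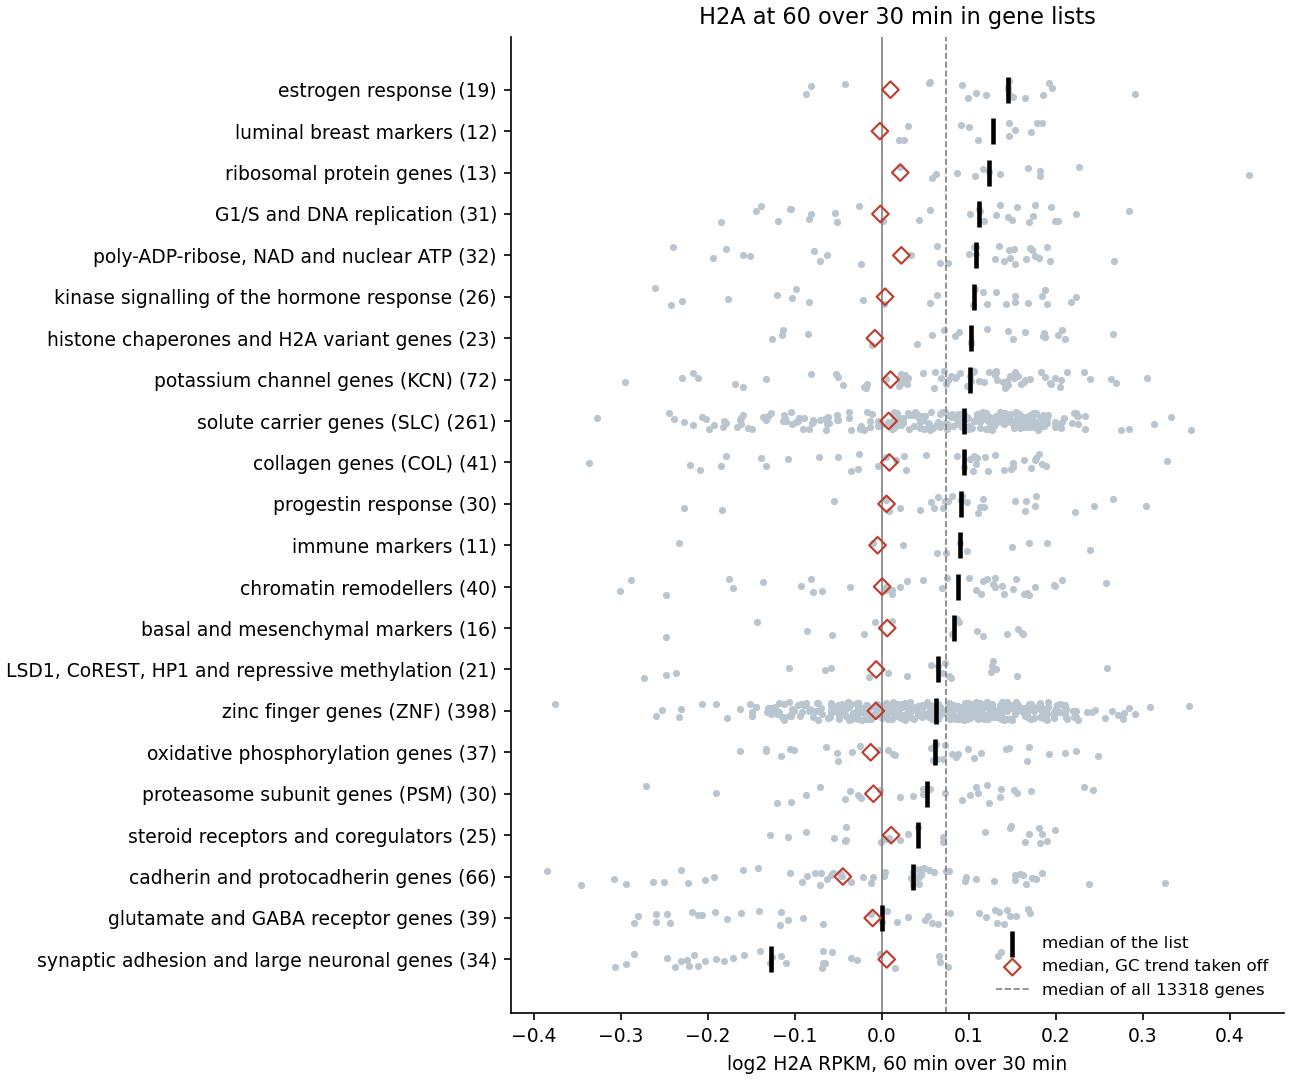
Log2 ratio of H2A RPKM at 60 over 30 min (horizontal axis) of the genes in 22 lists (1 grey point a gene, number of genes in brackets), with the list median (black bar), the list median with the GC trend taken off (red diamond) and the median of all 13318 genes (dashed line, 0.07). List medians go from -0.13 (synaptic adhesion) to 0.15 (estrogen response), and with the trend off all lie near 0, with cadherin and protocadherin genes farthest at -0.04.

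The cadherin and protocadherin genes kept the median farthest from 0 once the GC trend was off. Of 66, 38 were higher as measured (median 0.04), and 21 were higher and 45 lower with the trend off (median -0.04). The 36 clustered protocadherins between 140.2 and 140.9 Mb of chromosome 5 had a median of 0.04 as measured and -0.07 with the trend off, where 31 were lower. Many of these 36 share exons and each overlaps another gene of the table, so they count many of the same reads and are not independent values. The other 30 genes of the list had a median of -0.05, and 0.00 with the trend off, from CDH19 (-0.39, SE 0.04) to CDH16 (0.33, SE 0.09). As measured, with the trend left in, the list's median was -0.09 without genes that overlap another, which drops all 36 clustered protocadherins. It was -0.04 when centred, and -0.05 when only genes averaging 1 RPKM or more were kept. These alternatives do not bear on the trend-off median of -0.04.

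The genes were also divided by the deposited peaks of other proteins within the gene body and 5 kb on each side. BPTF peaks listed as displaced after hormone lay at 1750 genes, whose median was -0.01 against 0.08 at the other genes. BPTF peaks listed as recruited lay at 940 genes, with 0.08 against 0.07. Genes with displaced peaks had a median GC content of 39.5% against 43.8%, and a median length of 108280 bp against 35065 bp. With the GC trend off both kinds stood near the rest, at 0.00 for displaced and 0.01 for recruited. The share of genes higher with the trend off was 56.9% at recruited peaks against 49.4% elsewhere, the widest gap among the 6 peak lists. Genes with recruited peaks were also longer, with a median of 91276 bp against 37870 bp. The trend-off share moved with H2A level too: 1197 of 2664 genes were higher in the lowest quintile by mean RPKM and 1419 of 2664 in the highest. Whether length or level accounts for the gap at recruited peaks was not tested. DECR2, a peroxisomal reductase with a recruited peak, had 0.32 (SE 0.10), and TWF1, an actin-binding protein with one, had -0.35 (SE 0.08).

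Peaks of HP1γ, a heterochromatin protein, and of LSD1, a histone demethylase, lay at genes whose medians were above 0 but below those of the other genes. Genes with an HP1γ peak at 30 min (4495 genes) had a median of 0.04 against 0.09 without, and genes with an LSD1 peak at 30 min (4324 genes) 0.03 against 0.09. With a peak score of at least 50, the median was 0.02 at the 825 genes left for HP1γ and turned to -0.01 at the 559 left for LSD1. At 0 min the values were 0.06 against 0.08 for HP1γ (5098 genes) and 0.02 against 0.10 for LSD1 (4594 genes). In each case the genes with peaks were longer and GC-poorer, and with the trend off all 4 medians were 0.00. SDF2, with peaks of HP1γ at 30 min, had 0.34 (SE 0.07).

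At the length threshold, ZNF436 (0.10), FAM216B (-0.04) and SIX4 (0.07) lay just under 10 kb, and INO80E (0.28), COL9A3 (0.19) and PTOV1 (0.26) just over it. At the RPKM threshold, GOLGA8I (0.18), ENSG00000266302 (-0.03) and RASA4B (0.07) lay just under 0.1, and FAM230A (0.16) and TIMM23B (0.10) just over it.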

How the data were processed

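RPKM values of protein-coding genes were computed by the authors with HOMER, which counted reads on either strand within GENCODE version 18 genes, per the file headers. Bowtie 1.0.0, HOMER 4.7.2 and hg19 (GRCh37) are named in the submitters' processing notes. Trimming, treatment of duplicate reads and aligner settings are not given in the sources used here, and duplicates or a GC bias of the library would pass into the RPKM. The HP1γ and LSD1 peaks carry a score as deposited by the authors, used only as a filter, and the BPTF lists hold positions. Neither the peak caller nor what the score means is given in the sources used here. Each log2 ratio used RPKM plus 0.05, which understates the difference of low genes, and was not centred. GC content came from GRCh37 and transcript numbers from version 44 of GENCODE, lifted to GRCh37, not the version behind the RPKM. Where these numbers differ, so do the counting standard errors. With 1 library a side there was no test and no p-value. Python 3.11.15, pandas 2.3.3 and scipy 1.17.1 were used, and the calculation was tested on simulated data.

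Genes were named by rule: the 10 highest and 10 lowest ratios, the 5 at each end with the GC trend off, up to 2 at each end of each of 22 gene lists and 6 peak lists, 13 genes of the hormone response, and up to 3 genes on each side of each threshold. MEF2A, MKLN1, SND1 and GLIS3 were added outside the rule, after their values were seen. Some genes that meet the rule are not reported here. The genes and lists were chosen with earlier results of these data known.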

Additional observations from a re-analysis of the deposited data

How the results depend on the processing

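With 1 library a side, no value below covers the spread between cultures. No paired analysis was possible because each group has 1 library and no test was run. As reported, the median log2 ratio of 60 over 30 min was 0.0743, 79 genes were higher and 82 lower past 0.3, 68.5% were higher, and the GC-richest decile exceeded the GC-poorest by 0.3258. With a pseudocount of 0.01 that gap was 0.3336. With 0.5 the median was 0.0573, the counts 15 and 14 and the gap 0.2617. A mean RPKM of at least 1 gave 0.0782 and 69.5% higher. No length filter gave 0.0906, 815 and 224 genes, 71.8% and a gap of 0.2972, and at least 50 kb gave 0.0282, 0 and 28 genes, 57.3% and 0.3437. With the GC trend off the median was 0.0, with 3 and 6 genes and 49.9% higher, and centring gave 0.0, 9 and 382 genes and 50%, both by construction in the median and the share. The 754 genes with 1 annotated transcript gave 2 and 5 genes, 69.4% and a gap of 0.2989, where the smaller number of genes sets the counts. A threshold of 0.2 gave 1059 and 557 genes, and 0.5 gave 1 and 1. After the data were seen, genes with no overlap were added (0.0711, 67.3%), and a GC trend of 20 bins (0.0, 4 and 8 genes, 49.99%). The GC gap kept its sign in every alternative that gave one other than the GC trend off, which sets it to 0. List and peak medians turned sign in 12 of 26 cases with the GC trend off, 12 of 22 with 20 GC bins, 7 of 22 when centred, 4 of 22 at 50 kb or more, 2 of 9 with 1 transcript, 1 of 2 at a peak score of at least 50, and 1 of 22 each without overlapping genes and at 1 RPKM or more. Unless the construction is named, the cause was not tested. Counting error limits the low and short genes, such as FAM86B1 and C4B.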
